A study of Mus musculus with 60 samples.

Results

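Gene expression in the lungs of mice 168 h after inhalation of superparamagnetic iron oxide (SPIO) nanoparticles was compared with that of sham controls of the same time. The arrays were chosen by their titles, as the 5 SPIO and the 5 sham arrays of 168 h, which made up 10 of the 60 arrays of the study. All 18193 genes with a probe set of their own on the array were followed, each by the probe set with the highest mean over the 60 arrays, called the brightest below. At an adjusted p under 0.05, 398 genes differed (2.19% of those tested), of which 295 were lower and 103 higher in SPIO mice.

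The SPIO group consisted of male Balb/c mice that inhaled the SPIO aerosol for 4 h by nose-only exposure and were sacrificed 168 h after it ended. The sham group consisted of male Balb/c mice of the same time that inhaled a humidified mixture of helium, oxygen and filtered air with no particles for the same 4 h. The study held 12 such groups of 5 mice, SPIO and sham at 0, 6, 24, 48, 96 and 168 h, all sacrificed by an overdose of sodium pentobarbital. Total RNA of the right diaphragmatic lobe was hybridised to Affymetrix mouse genome arrays, a single array per mouse, and values are log2 signals. Mice assigned to 168 h lived in metabolism cages on a liquid diet until sacrifice, which sets this time apart from all others. The methods name this housing after SPIO exposure and do not spell it out for the sham mice, so that its part in any difference was not tested. Ages of the mice are not given in the sources used here.

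SPIO nanoparticles that settle in the deep lung are taken up mainly by alveolar macrophages, which hold them in lysosomes, the acidic compartment where iron cores dissolve slowly. The alveolar wall is a thin epithelium sealed by tight junctions of claudins, and its cells restore protein folding through chaperones of the cytosol and of the endoplasmic reticulum. Inflammation after particle inhalation is carried by chemokines that attract neutrophils, monocytes and macrophages, and it recedes as the particles are cleared.

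The tissue label held in every array, since Sftpc, a surfactant protein of alveolar type 2 cells, ranged between 14.91 and 14.95 on the log2 scale in SPIO mice and between 14.9 and 14.97 in sham mice. Array medians at 168 h lay between 5.54 and 5.62, and no columns were identical. Within groups, arrays correlated at 0.988 or more among SPIO mice and at 0.984 or more among sham mice. Between SPIO and sham arrays the correlations ran from 0.979 to 0.996. The medians were 0.991 between groups, 0.992 within SPIO mice and 0.991 within sham mice. Heart muscle was present in a mouse-dependent amount in both groups, as Myh6, the myosin of cardiac atria and ventricles, ranged from 4.18 to 12.53 in SPIO mice and from 4.04 to 12.44 in sham mice. Sham mouse 1 stood apart, being the lowest sham mouse in 68 of the 103 higher genes (66%, against 34.5% of all genes) and the highest in 135 of the 295 lower genes (45.8%, against 20.4% of all genes). Sham mouse 5 stood apart the other way, being the lowest sham mouse in 194 of the 295 lower genes (65.8%, against 17.6% of all genes) and the highest in 68 of the 103 higher genes (66%, against 23.5% of all genes). SPIO mouse 1 was the lowest SPIO mouse in 138 of the 295 lower genes (46.8%, against 12.9% of all genes).

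Among the genes past the adjusted p, the fall was the larger side of the comparison. The 295 lower genes made up 1.62% of those tested and the 103 higher genes 0.566% (limma, adjusted p under 0.05). Over all genes the median log2 fold change was 0.015, and 46.3% of them were below 0. At an unadjusted p under 0.05 the sides were nearly even, with 1585 genes lower (8.71%) and 1463 higher (8.04%). A fold above 1.5 was reached by 102 lower and 19 higher genes, and a fold above 2 by 26 lower and 2 higher genes. In 198 of the lower and 46 of the higher genes the values of the 5 SPIO and the 5 sham mice did not overlap at all. Among all 18193 genes the groups did not overlap in 414 with lower (2.28%) and 289 with higher (1.59%) values in SPIO mice. As a group the genes that differed were bright, with a median level of 8.78 for the lower and 7.92 for the higher genes, against 7.09 for all genes. When the arrays were quantile normalised again, 270 genes were higher and 215 lower, with 307 of the 398 genes among them, so which direction held more genes changed with the normalisation. The values of single genes below are those of the brightest probe set. Of the 61 named genes that passed, 43 had further probe sets, and the second-brightest passed in the same direction for 5 of them, Greb1, Zc3h15, Hsp90aa1, Gadd45b and Psma7.

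The number of genes depended on single mice. It was 100, 631, 228, 587 and 149 without SPIO mouse 1, 2, 3, 4 or 5, and 137, 202, 288, 209 and 665 without sham mouse 1, 2, 3, 4 or 5. None of the 398 genes changed sign in any of these 10 fits, and 78 of them passed in all 10, 70 lower and 8 higher. Lower genes outnumbered higher genes in each fit, as the plot of genes by array left out shows. With the 10 arrays of 168 h fitted alone, which leaves fewer arrays to estimate the spread, 57 genes passed, 49 lower and 8 higher.

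**Figure D1:**
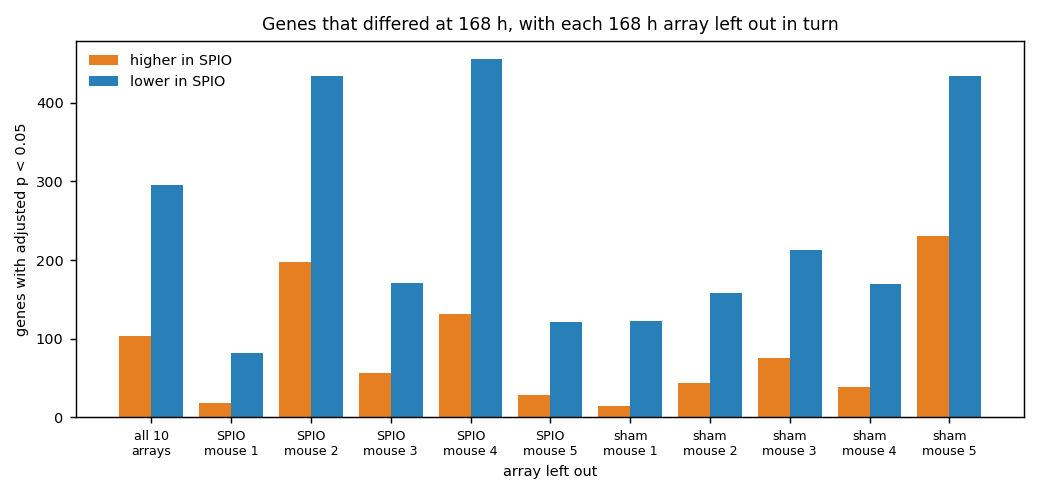
Number of genes past an adjusted p under 0.05 at 168 h (vertical axis), higher (orange) or lower (blue) in SPIO mice than in sham mice, with all 10 arrays and with each array left out in turn. The total runs from 100 without SPIO mouse 1 to 665 without sham mouse 5, and the lower genes are the larger part in every fit.

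The largest falls among genes without overlap were those of Sntb2, Sp4, Nipbl and Rufy2. Sntb2, a syntrophin that binds the dystrophin complex at the membrane, had log2 values of 6.51, 7.84, 7.16, 7.71 and 7.4 in SPIO mice 1 to 5, against 9.31, 8.84, 9.03, 9.03 and 8.75 in sham mice 1 to 5. Every SPIO mouse was below the lowest sham mouse, and the mean was 3.18-fold lower in SPIO mice (log2 fold change -1.67 ± 0.22, standard error, adjusted p = 1.9e-06). Sp4, a zinc finger transcription factor, had 6.38, 7.11, 6.82, 6.67 and 6.5 in SPIO mice, against 8.31, 8.19, 8.38, 8.21 and 8.02 in sham mice. Its groups did not overlap either, and the mean was 2.88-fold lower in SPIO mice (-1.53 ± 0.19, adjusted p = 8.4e-07). Nipbl, which loads the cohesin ring onto DNA, had 7.46, 8.58, 8.55, 8.11 and 8.37 in SPIO mice, against 9.9, 9.87, 9.67, 9.45 and 9.48 in sham mice, and was 2.76-fold lower in SPIO mice (-1.46 ± 0.18, adjusted p = 8.4e-07). A second probe set of Nipbl at the same mean level of 9.17 had a log2 fold change of -0.06, and the mean of its 5 probe sets was -0.43. SPIO mouse 1 was the lowest for each of these genes. The exact two-sided permutation p of each was 0.0079, the smallest that 5 against 5 mice allow. The choice of genes without overlap fixed this value, so it adds no evidence.

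Both Chd4 and Gatad2b, subunits of the NuRD complex that remodels nucleosomes and removes histone acetyl groups, were lower in their brightest probe sets. Chd4, its motor, averaged 9.09 ± 0.58 in SPIO mice and 10.25 ± 0.17 in sham mice (SD, n = 5 each), a fall of 2.23-fold with an adjusted p of 0.0042 by limma. The second-brightest probe set of Chd4, at a mean level of 9.16 beside 9.7, had a log2 fold change of 0.07. Gatad2b averaged 7.25 ± 0.27 in SPIO mice and 8.53 ± 0.27 in sham mice (SD, n = 5 each), 2.43-fold lower (limma, adjusted p = 0.00086). Its second probe set, nearly as bright at 7.88 beside 8.01, had a log2 fold change of -0.19, the other 3 had 0.09, 0.17 and 0.07, and the mean of all did not pass (-0.23, adjusted p = 0.064). Lncpint, a long noncoding RNA that p53 induces, was 2.51-fold lower in SPIO mice, with an adjusted p of 0.0062 that became 0.052 without SPIO mouse 1. Rufy2, a protein of endosomes, was 2.75-fold lower at a low level, averaging 4.64 ± 0.54 in SPIO mice and 6.1 ± 0.24 in sham mice. Whamm, which nucleates branched actin at the Golgi, Zc3h15, Pdap1 and the zinc finger gene Zfp626 were 2.25-fold, 2.19-fold, 2.2-fold and 2.1-fold lower in SPIO mice. All genes of this paragraph except Lncpint passed in their brightest probe sets with any single array left out. The other probe set of Whamm, nearly as bright at 6.41 beside 6.85, had a log2 fold change of 0.02. Those of Pdap1 and Zfp626 had -0.14 and 0.01, and those of Rufy2 -0.09, 0.11 and -0.03, with none past the threshold.

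Cldn18 and Itgb6, which act at the epithelial surface, were among the lower genes. Cldn18, a claudin of alveolar tight junctions, had 10.72, 11.89, 11.71, 11.54 and 11.29 in SPIO mice, against 12.26, 12.72, 12.57, 12.72 and 12.33 in sham mice. All SPIO mice were below all sham mice, and the mean was 2.13-fold lower (log2 fold change -1.09 ± 0.2, standard error, adjusted p = 9e-04), with an adjusted p of at most 0.015 whichever array was left out. Itgb6, the integrin subunit through which epithelial cells activate TGF-beta, averaged 6.81 ± 0.3 in SPIO mice and 7.96 ± 0.29 in sham mice (SD, n = 5 each), 2.22-fold lower (limma, adjusted p = 0.0093, and 0.055 without SPIO mouse 1). Layn, a membrane receptor for hyaluronan, was 2.17-fold lower (limma, adjusted p = 2e-04). These are the values of the brightest probe sets. The other probe set of Cldn18, nearly as bright at 11.66 beside 12.12, had a log2 fold change of -0.15 with overlapping groups. Those of Itgb6 and Layn had -0.52 and -0.03, and none of these passed. In whole lung tissue, fewer cells of a type and less RNA per cell cannot be told apart. None of the 16 measured genes of alveolar type 2 cells and surfactant and none of the 13 of alveolar type 1 cells passed the test, with a median log2 fold change of -0.03 in each list.

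**Figure D2:**
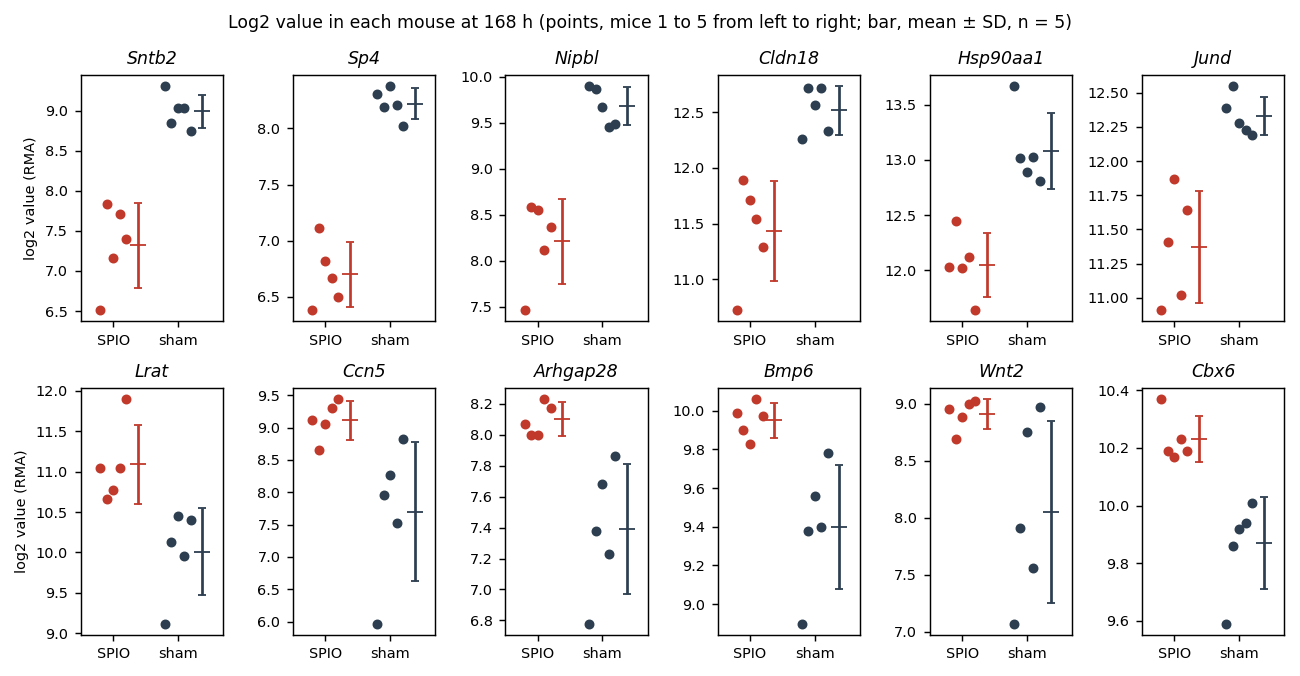
Log2 value (vertical axis, RMA) of 12 genes in each mouse at 168 h, with SPIO mice left (red) and sham mice right (dark blue), mice 1 to 5 from left to right, and the mean with its SD (n = 5). In the 6 lower genes of the top row every SPIO mouse lies below every sham mouse, while Ccn5 and Wnt2 in the bottom row overlap and sham mouse 1 is the lowest for all 6.

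Higher genes moved less, by a median of 0.41 on the log2 scale, against -0.5 for the lower genes. Lrat, the enzyme that esterifies retinol for storage, had 11.05, 10.66, 10.77, 11.05 and 11.9 in SPIO mice, against 9.12, 10.13, 10.45, 9.96 and 10.4 in sham mice. Its groups did not overlap and the mean was 2.11-fold higher in SPIO mice (log2 fold change 1.08 ± 0.25, standard error, adjusted p = 0.011). Without sham mouse 1, the lowest, the difference was 0.85 with an adjusted p of 0.096, and it also missed the threshold without SPIO mouse 5. Ccn5, a matricellular protein of smooth muscle and fibroblasts, had 9.12, 8.66, 9.05, 9.3 and 9.44 in SPIO mice, against 5.97, 7.95, 8.26, 7.53 and 8.82 in sham mice. The fold was the largest among the higher genes at 2.65 (adjusted p = 0.0062), but the groups overlapped by sham mouse 5, and without sham mouse 1 the difference was 0.98 (adjusted p = 0.074).

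Wnt2 and Bmp6, both secreted ligands, were among the higher genes. Wnt2, a ligand of lung fibroblasts and mesenchyme, ranged narrowly from 8.69 to 9.02 in SPIO mice and widely from 7.07 to 8.97 in sham mice, with 1.81-fold higher means in SPIO mice (limma, adjusted p = 0.042, exact permutation p = 0.071, two-sided). Bmp6, a growth factor known in liver for inducing the iron hormone hepcidin, averaged 9.95 ± 0.09 in SPIO mice and 9.4 ± 0.32 in sham mice (SD, n = 5 each), 1.46-fold higher (limma, adjusted p = 0.021). Without sham mouse 1 the adjusted p was 0.23 for Wnt2 and 0.14 for Bmp6. Wnt2 passed in 3 of the 10 fits with an array left out, those without SPIO mouse 2 or sham mouse 3 or 5, and Bmp6 in 6, all but those without SPIO mouse 1 or 5 or sham mouse 1 or 2. Arhgap28 had 8.07, 8, 8, 8.23 and 8.17 in SPIO mice, against 6.78, 7.38, 7.68, 7.23 and 7.86 in sham mice. It was 1.63-fold higher (limma, adjusted p = 0.0042), and with D13Ertd608e (1.68-fold, adjusted p = 0.0042) it passed, alone among the 15 non-overlapping higher genes with the largest change, in all 10 such fits. D13Ertd608e had a low mean level of 4.74, against a median of 7.09 for all genes.

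St8sia2, which builds polysialic acid, Greb1, a gene known for its response to estrogen, Golt1a, Chn2, Vat1, Garnl3, Xkrx, Mdrl, Fsip1, Hunk and Gkn3 made up the rest of the 15. These genes were between 1.4-fold and 1.64-fold higher in SPIO mice (adjusted p from 0.0094 to 0.046). The mean levels of Golt1a, Garnl3, Xkrx, Mdrl and Fsip1 were low, at 4.63, 4.95, 4.4, 4.74 and 4.61, against a median of 7.09 for all genes. Each of them missed the threshold in at least 1 of the 10 fits, and each missed it without sham mouse 1, where Garnl3 had the smallest adjusted p at 0.057 and Mdrl the largest at 0.16. Several of the widest rises were in genes whose groups overlapped through sham mice. Cdh11 and Chit1 are named after their values were seen, and neither passed in all 10 fits. Cdh11, a cadherin of mesenchymal cells, averaged 10.4 ± 0.22 in SPIO mice and 9.45 ± 0.68 in sham mice (SD, n = 5 each; limma, adjusted p = 0.022). Chit1, a chitinase secreted by macrophages, was 0.57 higher on the log2 scale in SPIO mice (limma, adjusted p = 0.029).

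In the lists of protein folding and degradation, the members that passed the test were lower in SPIO mice. The unfolded protein response is the program that raises chaperones of the endoplasmic reticulum. Of its 32 measured genes, 4 fell (1.62% of all genes did), none rose and 28 did not pass the test. The median log2 fold change of the list was -0.17, against 0.015 for all genes, and -0.09 after quantile normalising again. At an unadjusted p under 0.05, 14 of the 32 were lower, against 8.71% of all genes, and 10 without sham mouse 1. Dnajc3, a co-chaperone that also restrains the eIF2-alpha kinases, had 10.35, 11, 10.56, 11.16 and 10.88 in SPIO mice, against 11.82, 11.58, 11.6, 11.53 and 11.3 in sham mice. Its groups did not overlap (log2 fold change -0.78 ± 0.16, standard error, adjusted p = 0.0042), and it passed with any single array left out. Its other probe sets had -0.05, -0.14, -0.22 and 0.19, the first nearly as bright at 11.03 beside 11.3, and none passed. Creld2, a secreted chaperone-associated protein, Manf, a secreted factor of the endoplasmic reticulum, and Pdia3, a disulfide isomerase, were 1.64-fold, 1.43-fold and 1.28-fold lower (adjusted p = 0.027, 0.035 and 0.032). Sham mouse 1 was the highest for each of the named genes, and without it Creld2, Manf and Pdia3 had adjusted p-values of 0.18, 0.2 and 0.13. Creld2 and Manf passed in 5 of the 10 fits with an array left out, all but those without SPIO mouse 1, 3 or 5 or sham mouse 1 or 2, and Pdia3 in 4, missing also without sham mouse 4.

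The promoters of the genes that fell in this list were read from RefSeq (build GRCm38.p6, 250 bases before and 50 bases after the start), where 28 of the 32 measured members had a row. The motif searched on both strands was the ER stress element, the letters CCAAT, then 9 bases of any kind, then CCACG, and its first letters are those of the common CCAAT box. It stood in 39 of 32851 promoters (0.119%), which belonged to 37 of 27025 genes (0.137%), and in 9 of the 28 members, namely Calr, Canx, Creld2, Derl3, Dnajc3, Hsp90b1, Hspa5, Pdia6 and Syvn1. Of the members that fell, Dnajc3 (chr14:118937682-118937981, plus strand) and Creld2 (chr15:88819396-88819695, plus strand) hold it and Pdia3 (chr2:121413652-121413951, plus strand) does not. Manf, which also fell, had no row and was not searched. The promoters of the holders are shown to place the element, in capitals, which starts 105 bases before the start site of Dnajc3 in the forward orientation and 126 bases before that of Creld2 in the reverse orientation.
Dnajc3: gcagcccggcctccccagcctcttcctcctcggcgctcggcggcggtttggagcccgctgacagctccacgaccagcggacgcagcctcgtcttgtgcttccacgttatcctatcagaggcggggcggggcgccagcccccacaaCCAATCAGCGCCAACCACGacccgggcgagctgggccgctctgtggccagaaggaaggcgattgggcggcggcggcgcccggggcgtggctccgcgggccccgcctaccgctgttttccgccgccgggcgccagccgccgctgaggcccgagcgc
Creld2: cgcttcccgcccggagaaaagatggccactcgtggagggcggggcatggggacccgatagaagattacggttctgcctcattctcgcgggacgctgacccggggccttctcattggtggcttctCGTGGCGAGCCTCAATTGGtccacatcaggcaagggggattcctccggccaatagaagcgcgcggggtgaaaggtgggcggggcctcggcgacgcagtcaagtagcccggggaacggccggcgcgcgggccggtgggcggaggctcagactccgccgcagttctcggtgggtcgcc
Hspa5, the main chaperone of the endoplasmic reticulum, holds the element and did not pass the test at 168 h (log2 fold change -0.3, adjusted p = 0.11). A match of letters is a description only.

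In the cytosol, Hsp90aa1, the inducible HSP90 chaperone, had 12.03, 12.45, 12.02, 12.12 and 11.64 in SPIO mice, against 13.67, 13.02, 12.89, 13.03 and 12.81 in sham mice. The groups did not overlap and the mean was 2.04-fold lower in SPIO mice (log2 fold change -1.03 ± 0.21, standard error, adjusted p = 0.003). Sham mouse 1 was the highest, and without it the difference was -0.89 (adjusted p = 0.028). Hsp90aa1 was the only one of 22 measured heat shock genes to pass, where 1.62% of all genes were lower. The median of the list was -0.37. At an unadjusted p under 0.05, 10 of the 22 were lower, against 8.71% of all genes, or 2 without sham mouse 1. The proteasome, which degrades tagged proteins, had 3 of 33 subunit genes lower, against 1.62% of all genes, and none higher. Its median was -0.14, and -0.08 after quantile normalising again. At an unadjusted p under 0.05, 17 of 33 were lower, against 8.71% of all genes, or 13 without sham mouse 1. Psma7, a subunit of the core ring, ranged from 10.45 to 10.79 in SPIO mice and from 10.84 to 11.03 in sham mice, so that the groups were apart although the fold was 1.25 (limma, adjusted p = 0.0013). Psma4 of the same ring and Psmd12 of the regulatory lid were 1.27-fold and 1.18-fold lower (adjusted p = 0.015 and 0.036), and both missed the threshold without SPIO mouse 1, 3 or 5. Psmd12 also missed it without sham mouse 1, 2, 3 or 4. The core of the antioxidant response element, TGAC, 3 bases of any kind and GC, which NRF2 binds, stood on either strand in 4 of the 27 measured proteasome genes with a RefSeq row, against 14% of all genes and 12.4% of all promoters of that length, and of the genes that fell Psmd12 alone held it.

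Among lysosomal genes, which act where inhaled particles end up, 3 of 34 fell (1.62% of all genes did) and none rose, while the median of the list was 0. At an unadjusted p under 0.05, 5 of the 34 were higher and 4 lower, against 8.04% and 8.71% of all genes. Lipa, the acid lipase that frees cholesterol in lysosomes, had 9.27, 9.64, 9.52, 9.6 and 9.42 in SPIO mice, against 9.9, 10.77, 10.62, 10.32 and 10.28 in sham mice (log2 fold change -0.89 ± 0.19, standard error, adjusted p = 0.0046). Its groups did not overlap, but its other probe sets went the other way. At mean levels of 9.86 and 9.46 beside 9.96, they had log2 fold changes of 0.34 and 0.42. The mean of the probe sets of Lipa was -0.04 (limma, adjusted p = 0.91). Atp6v1a, a catalytic subunit of the proton pump that acidifies lysosomes, was 1.65-fold lower (limma, adjusted p = 0.009, and 0.073 without SPIO mouse 1). Its other probe set, nearly as bright at a mean level of 10.41 beside 10.66, had a log2 fold change of 0.03, and the mean of both was -0.35. Npc1, which exports cholesterol from lysosomes, was 1.5-fold lower with sham mouse 5 at the level of SPIO mouse 2 (limma, adjusted p = 0.022), and it passed in 4 of the 10 fits with an array left out, missing without SPIO mouse 1, 3 or 5 or sham mouse 1, 2 or 4. In sterol synthesis, 2 of 25 genes fell, Lss, which closes the sterol ring (1.33-fold), and Stard4, a cholesterol carrier (1.36-fold), with adjusted p-values of 0.022 and 0.035. Lss passed in 5 of the 10 fits, missing without SPIO mouse 1, 3 or 5 or sham mouse 1 or 2, and Stard4 in 4, missing without SPIO mouse 1 or 5 or sham mouse 1, 2, 3 or 4.

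Several transcription factors of early and daily responses were among the lower genes. Jund, a subunit of AP-1, had 10.91, 11.41, 11.87, 11.02 and 11.64 in SPIO mice, against 12.39, 12.55, 12.28, 12.23 and 12.19 in sham mice. It was 1.94-fold lower with no overlap (log2 fold change -0.96 ± 0.15, standard error, adjusted p = 0.00011) and passed with any single array left out. Nr4a2, an orphan nuclear receptor induced by many stimuli, was 1.83-fold lower (limma, adjusted p = 0.016), with 8.53 in sham mouse 1 and 7.73 to 7.91 in the other sham mice, and without sham mouse 1 the adjusted p was 0.1. Nr4a2 also missed the threshold without SPIO mouse 1 or 5. Its second probe set, nearly as bright at 7.49 beside 7.81, had a log2 fold change of -0.23. The mean of its 6 probe sets was -0.14 (limma, adjusted p = 0.5). Jund and Nr4a2 were the only 2 of 30 immediate early genes to pass, where 1.62% of all genes were lower, and the list had a median of -0.16. Arntl, the clock activator BMAL1, had 6.07, 6.6, 6.32, 6.92 and 6.51 in SPIO mice, against 8.56, 7.16, 7.83, 7.46 and 6.96 in sham mice. It was 2.16-fold lower (limma, adjusted p = 0.013), the only one of 24 clock genes to pass, and it did not without sham mouse 1 (-0.87, adjusted p = 0.11) or without SPIO mouse 1. Ppara, a nuclear receptor that drives fatty acid oxidation, was 2.05-fold lower (limma, adjusted p = 0.0093), again with sham mouse 1 highest at 7.4 and an adjusted p of 0.076 without it, and it missed the threshold without SPIO mouse 1 too. The other probe sets of Ppara had log2 fold changes of -0.02 and -0.15, and neither passed.

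Of 35 interferon response genes, 3 fell (1.62% of all genes did) and none rose, with a median of 0.08. Eif2ak2, the kinase that senses double-stranded RNA, had 7.42, 7.75, 7.62, 7.65 and 7.25 in SPIO mice, against 8.71, 8.6, 8.55, 8.21 and 8.3 in sham mice (log2 fold change -0.94 ± 0.19, standard error, adjusted p = 0.003). Stat2, which carries the signal of type I interferon, was 1.7-fold lower with no overlap (limma, adjusted p = 0.001), and both passed with any single array left out. Their other probe sets had log2 fold changes of -0.2 and -0.16 for Eif2ak2 and -0.19 for Stat2, and none passed. Isg20, an RNA-degrading enzyme, was 1.27-fold lower (limma, adjusted p = 0.018, and 0.11 without sham mouse 1), and missed the threshold without SPIO mouse 1 or 5 too. With 2.19% of all genes past the test, lists of this size hold few such genes or none, and so did those of inflammatory cells and mediators. None of 33 chemokines, 21 neutrophil genes, 33 macrophage genes or 17 monocyte genes passed, and of 38 cytokines and regulators of NF-kB only Csf1, the growth factor of macrophages, did, being 1.31-fold lower in SPIO mice (limma, adjusted p = 0.042). Csf1 still passed in 2 of the 10 fits with an array left out, those without SPIO mouse 2 or 3. Ccl4, a chemokine for monocytes, had 5.43 to 6.05 in SPIO mice and 5.23 to 5.47 in sham mice, a difference of 0.47 that did not pass (limma, adjusted p = 0.063). The neutrophil list had median log2 fold changes of -0.25, -0.07, 0.6, 0.44, 0.27 and -0.11 at 0, 6, 24, 48, 96 and 168 h, and the cell cycle list 0, -0.02, 0.44, 0.48, 0.31 and -0.13. Without sham mouse 1 the neutrophil median at 168 h was 0.02.

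**Figure D3:**
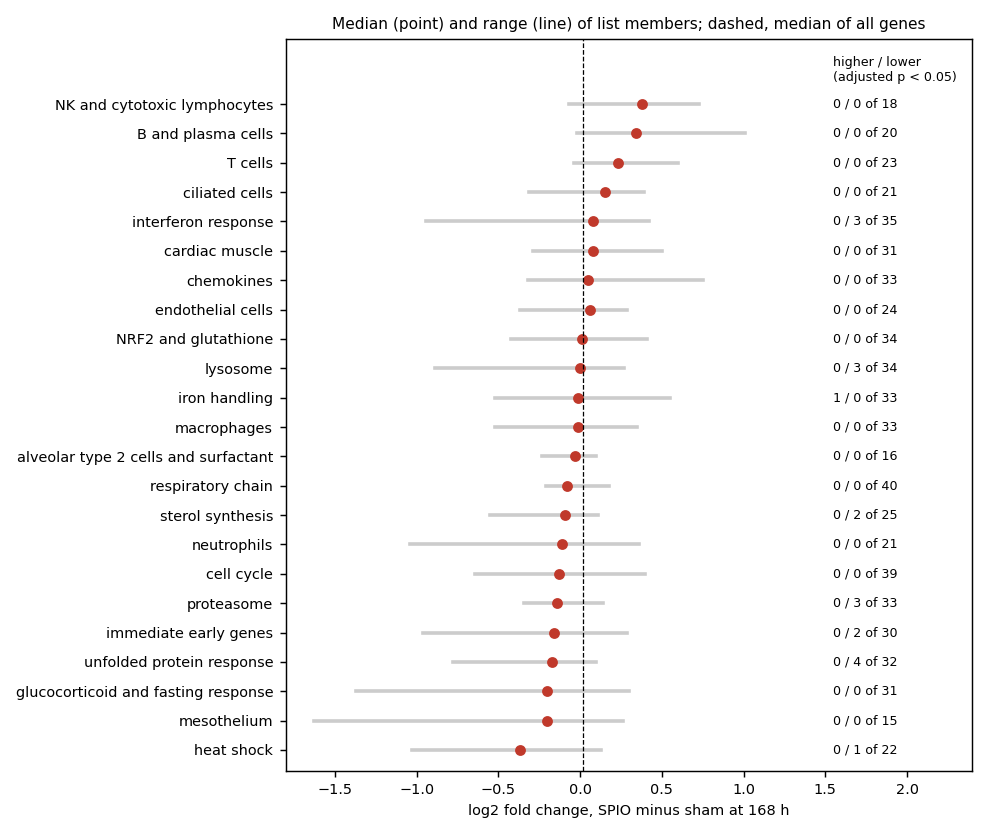
Median (red point) and range (grey line) of the log2 fold changes, SPIO minus sham at 168 h, of the measured members of 23 gene lists, with the median of all genes dashed at 0.015. The counts at the right give members past the adjusted p that were higher and lower, of those measured, and most lists have none.

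Over all 54 lists, 28 of the 1243 genes passed, 4 higher and 24 lower. This share of 2.25% was close to the 2.19% of all genes. In 36 lists no member passed. Iron handling, with 33 measured genes, had Bmp6 alone, and its median was -0.01, while none of 34 genes of NRF2 and glutathione passed and their median was 0.01. Outside the groups above, Gadd45b, a gene of growth arrest, and Nkd1, an inhibitor of WNT signalling, were 1.42-fold and 1.33-fold lower (adjusted p = 0.035 and 0.017), and Rpl27a, a ribosomal protein with many processed copies, was 1.31-fold higher (adjusted p = 0.041). They passed in 3, 7 and 3 of the 10 fits with an array left out, and none of them did so without SPIO mouse 1, sham mouse 1 or sham mouse 4, or with the probe sets of a gene averaged. Lymphocyte lists lay above 0 with no member past the threshold. Of 18 genes of NK and cytotoxic lymphocytes, 11 were higher at an unadjusted p under 0.05, against 8.04% of all genes, and the list median was 0.38. Klrk1, an activating receptor of these cells, had 4.84, 4.5, 4.85, 4.55 and 4.97 in SPIO mice, against 4.26, 4.26, 4.29, 4.2 and 4.39 in sham mice, and did not pass (limma, adjusted p = 0.064). The T cell list had a median of 0.23 and the B and plasma cell list one of 0.34, with 8 of 23 and 6 of 20 genes higher at an unadjusted p under 0.05. The thymus and lymph node list had a median of 0.33 and 4 of 12 genes higher at that p, or 0.1 and 0 without sham mouse 1. Without sham mouse 1 the number at that p was 6 for NK cells, 3 for T cells and 0 for B cells, and H2-Ob of B cells was 4.29 in that mouse and 5.53 to 6.84 in the other sham mice.

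Sham mouse 1 was high for genes of metal and steroid responses, none of which passed. Mt2, a metallothionein that binds zinc and copper, had 8.93, 9.22, 8.66, 8.96 and 8.71 in SPIO mice, against 12.65, 10.31, 9.64, 9.94 and 8.81 in sham mice. Sham mouse 1 was above all others and sham mouse 5 was within the SPIO range, and the difference of -1.37 did not pass (limma, adjusted p = 0.13). Fkbp5, which glucocorticoids induce, had 11.69 in sham mouse 1, while SPIO mice had 7.83 to 9.52 and the other sham mice 8.75 to 10.5. None of 31 genes of the glucocorticoid and fasting response passed, with a median of -0.2. At an unadjusted p under 0.05, 9 of 31 were lower, against 8.71% of all genes, or 2 without sham mouse 1. Of the mesothelium, the cell layer that covers the lung, Upk3b had 6.02, 6.22, 4.28, 6.83 and 7.33 in SPIO mice, against 6.48, 8.43, 7.94, 8.39 and 7.62 in sham mice. The groups overlapped and the difference of -1.63 did not pass (limma, adjusted p = 0.26).

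The same gene was often measured by several probe sets, short probe groups that target different stretches of its transcript, and these did not always move together. Of the 295 lower genes, 208 had other probe sets, 449 in all. Of these 449, 42 were lower past the adjusted p over all probe sets (9.35%, against 5.21% of 16752 dimmer probe sets of any gene), none was higher, their median was -0.07, and 170 of the 208 genes had none that was lower past it. Of the 103 higher genes, 57 had other probe sets, 118 in all, of which 4 were higher (3.39%, against 0.442% of dimmer probe sets of any gene) and 4 lower past the adjusted p, and 53 of the 57 genes had none that was higher past it. For Chd4, the dimmest probe set fell with the brightest (-0.94 against -1.16), and the second-brightest did not (0.07). For Zc3h15 the values were -1.13 for the brightest and -0.99, -0.16 and -0.32 for the others, and for Hsp90aa1 they were -1.03 for the brightest, -0.74 and -0.24 for those of similar level, and 0.01 and 0.03 for those of low level. Psma7 had -0.32 and -0.36, both past the threshold. In contrast, the dimmer probe set of Sp4 had 0.08 and that of Cldn18 -0.15, and Lipa had 0.34 and 0.42 beside -0.89 for the brightest. Cldn18 was nearly as bright in its other probe set, at a mean level of 11.66 beside 12.12, with 11.74, 11.48, 11.33, 11.83 and 11.56 in SPIO mice, against 11.46, 11.96, 11.67, 11.95 and 11.63 in sham mice, which overlap. With all probe sets of a gene averaged in place of the brightest, 19 of the 43 named genes with several probe sets no longer passed, none changed sign, and in 34 of the 43 the log2 fold change shrank by more than 1.5 times. Lipa was then at -0.04 (limma, adjusted p = 0.91), Dnajc3 at -0.2 (adjusted p = 0.19), Hsp90aa1 at -0.4 (adjusted p = 0.063) and Arntl at -0.48 (adjusted p = 0.069). Ppara, Nr4a2, Lss, Stard4, Csf1 and Mettl16 among the lower genes, and Lrat, Chn2, Fsip1, Gkn3 and Cbx6 among the higher ones, also missed the threshold, with adjusted p-values between 0.05 and 0.67. Cldn18 still passed at -0.62 (adjusted p = 0.00077), as did Sp4 at -0.73 and Sntb2 at -0.79.

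**Figure D4:**
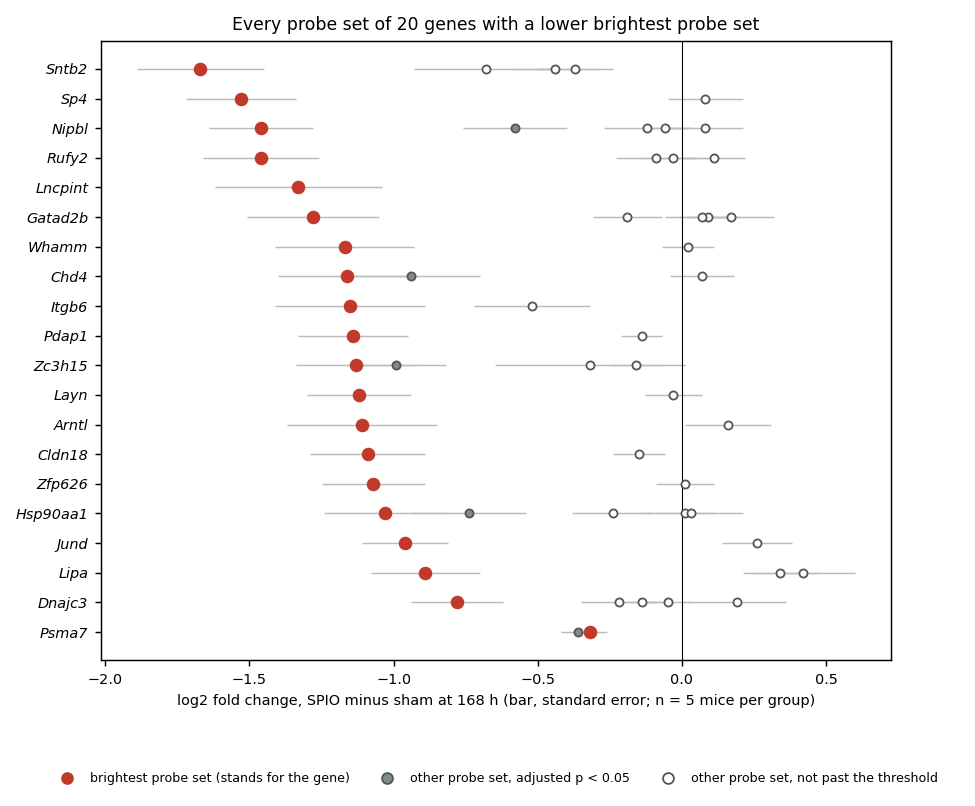
Log2 fold change, SPIO minus sham at 168 h (horizontal axis, with standard error), of every probe set of 20 lower genes (rows). Red points are the brightest probe sets, grey points others past the adjusted p and open points others that are not. Most open points lie near 0, while Chd4, Zc3h15, Hsp90aa1, Nipbl and Psma7 have a grey point, Nipbl beside an open one at -0.06.

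Taking every probe set on its own, 1326 of 45037 were lower (2.94%) and 254 higher (0.564%). The dimmer probe sets of genes with several held 873 lower (5.21%) and 74 higher (0.442%) ones, while the brightest held 349 lower and 139 higher ones of 18193 in the same test. These 873 came from 754 genes, 716 of which had a brightest probe set that was not lower in the test over genes. Examples, chosen after their values were seen, had several dimmer probe sets that fell together. Ccdc141, a coiled-coil protein, had -0.18 in its brightest probe set (adjusted p = 0.52), and -2.32, -1.76, -1.67 and -0.65 in 4 dimmer ones past the threshold. For the first of those, SPIO mice had 4.69, 6.66, 6.42, 5.82 and 6.34, against 8.89, 8.63, 8.25, 8.33 and 7.43 in sham mice, with no overlap. Ccnd2, the cyclin D2 of G1 phase, had 0 in its brightest and falls between -0.42 and -0.68 in 5 dimmer ones. Endod1, an endonuclease domain protein, had 0.08 in its brightest and -1.3, -1.2, -0.68 and -0.55 in 4 dimmer ones. What part of the transcript each probe set targets was not tested.

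Nearly all genes that fell at 168 h were also below sham at 96 h, though fewer of them passed the test there. At 96 h, 161 genes were lower (0.885%) and 95 higher (0.522%), and none of the arrays of that time were shared with 168 h. Lower genes common to both times numbered 108, which is 36.6% of the 295 at 168 h and 67.1% of the 161 at 96 h, and higher genes 12, which is 11.7% of the 103 at 168 h and 12.6% of the 95 at 96 h. No gene passed in opposite directions. Of the 295 lower genes, 283 were below 0 at 96 h (95.9%, against 31% of all genes) with a median of -0.34, and of the 103 higher genes 99 were above 0 (96.1%, against 69% of all genes) with a median of 0.21. The difference between the effects of the times was tested as well, and no gene passed (0% of 18193 by limma, with 1031 at an unadjusted p under 0.05 and a smallest adjusted p of 0.695). Examples of the common falls were Nipbl with -1.32 at 96 h and -1.46 at 168 h, Rufy2 with -1.59 and -1.46, Jund with -1.18 and -0.96, and Eif2ak2 with -0.92 and -0.94.

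Against 48 h, 739 genes had an effect that differed from that at 168 h (4.06%), 632 with a lower and 107 with a higher effect at 168 h. This number depended on the normalisation, at 160 after quantile normalising again and 176 with arrays centred on their medians, and on single mice, between 75 and 1889 with an array of either time left out. Arntl had log2 fold changes of 0.35 at 48 h and -1.11 at 168 h, a difference of -1.46 that passed (limma, adjusted p = 0.025). Bnip3, a mitochondrial protein induced by hypoxia, had log2 fold changes of 0.37 at 48 h and -0.59 at 168 h, a difference of -0.96 (limma, adjusted p = 0.013). Gkn3, a gastrokine, and Vat1 had differences of 0.71 and 0.72 the other way (adjusted p = 0.016 and 0.03).

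**Figure D5:**
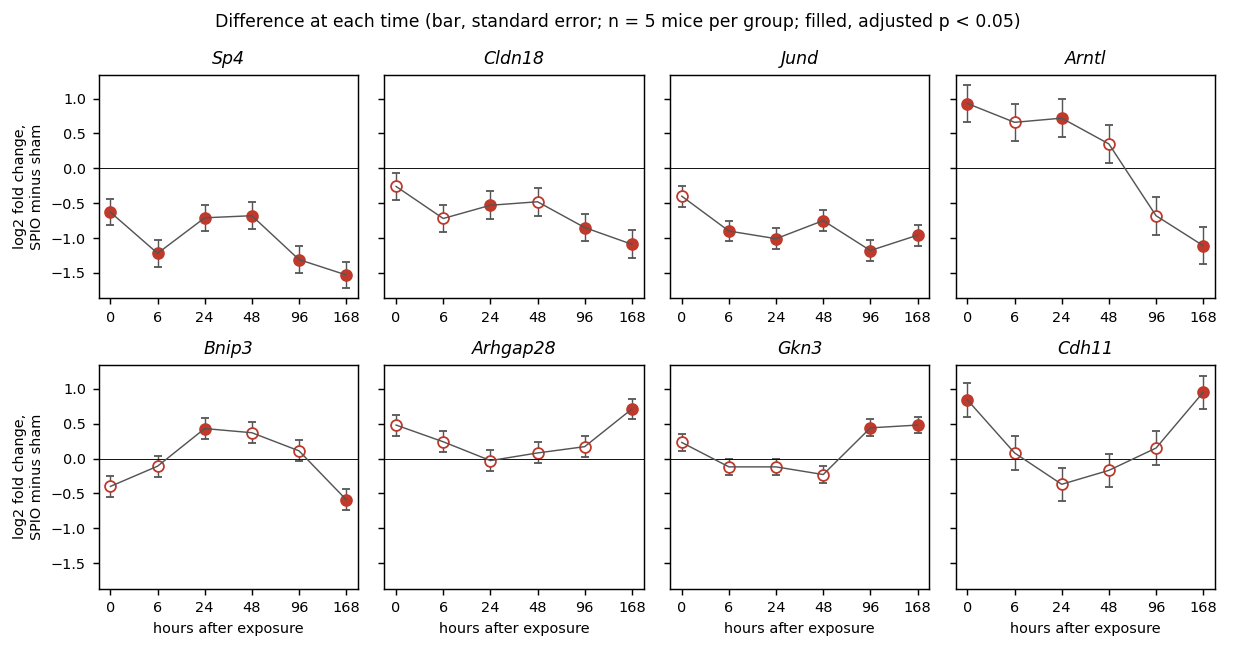
Log2 fold change, SPIO minus sham (vertical axis, with standard error, n = 5 mice per group), of 8 genes at 0, 6, 24, 48, 96 and 168 h (horizontal axis, times evenly spaced), with filled points past the adjusted p. Sp4 is lower at every time, Cldn18 and Jund stay below 0, Arntl and Bnip3 cross 0, and Arhgap28 is filled at 168 h only.

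Some genes differed in the same direction at all 6 times, P2rx7 and Cbx6 higher, and Sp4, Nipbl, Rufy2, 6820431F20Rik, Wdcp and Mettl16 lower among the named genes. Cbx6, a Polycomb subunit, had 10.37, 10.19, 10.17, 10.23 and 10.19 in SPIO mice, against 9.59, 9.86, 9.92, 9.94 and 10.01 in sham mice at 168 h. Its groups did not overlap (log2 fold change 0.36 ± 0.06, standard error, adjusted p = 0.00046). P2rx7, the ATP receptor that opens the inflammasome pathway, was 1.43-fold higher (limma, adjusted p = 0.009) with SPIO mouse 4 below sham mouse 3, and it missed the threshold without SPIO mouse 1 (adjusted p = 0.07). Both groups of 168 h stood off their own other times. Over the 295 lower genes the SPIO mice of 168 h were 0.17 below the other SPIO groups in the median, and the sham mice of 168 h were 0.09 above the other sham groups. Of the 6 SPIO group means, that of 168 h was the lowest in 192 of the 295 (65.1%, against 20.1% of all genes), and of the 6 sham means that of 168 h was the highest in 88 (29.8%, against 17.9% of all genes). For the 103 higher genes the SPIO mean of 168 h was the highest in 52 (50.5%, against 12.2% of all genes) and the sham mean the lowest in 31 (30.1%, against 12.6% of all genes). These shares describe genes chosen by the same contrast and are given without a test.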

How the data were processed

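Lung expression of 5 SPIO and 5 sham mice at 168 h was analysed within the 60 arrays of the study. The deposited log2 values had been made by the authors by RMA (background correction, quantile normalisation and probe summary), with no version named in the sources used here. Titles matched each of the 60 columns to a mouse, and 0 stayed unmatched. Of 45101 probe sets, 64 controls were left out, and 34945 with 1 gene symbol in the platform annotation gave 18193 genes by the highest mean, while 932 with several symbols and 9160 with none entered only the test over all probe sets. Groups were compared in R 4.3.3 by limma 3.58.1, in a linear model over 12 groups (residual degrees of freedom, 48), and p-values were adjusted by Benjamini-Hochberg over the 18193 genes. Single genes also had an exact two-sided permutation test over the 252 divisions of 10 mice. Differences between times were tested as interactions. The methods' test was run as an analysis of variance over the 12 groups with unequal variances, then Tukey's test on a pooled variance. It served as an alternative, beside other probe set rules, filters, normalisations, fits, a replicate block and each array left out. Leaving out the 2 arrays that stand apart at other times, the cardiac covariate and the probe set with the second highest mean were chosen after seeing the data.

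Named genes were those with the largest change, 15 higher and 15 lower, among those past the threshold without overlap (clone and predicted names passed over), up to 4 called members of each list or up to 2 of a list with none, the genes that differed at all 6 times, the transcripts the study followed by PCR, and tissue checks. The members and the 54 gene lists (1480 entries) were chosen with earlier results of these data known. Mice are separate animals. With 5 mice per group, the median standard error of a log2 fold change was 0.11, and precision is limited by the number of arrays. The test was checked on simulated data.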

Additional observations from a re-analysis of the deposited data

Results flagged for a closer look

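Among 147 named genes, each of the 294 groups of 5 mice was searched for a mouse whose gap to its neighbour exceeded 0.71 of the group's range, and 20 groups had such a mouse. Chance gives about 1 in 20. Sham mouse 1 accounted for 8 of the 20, as the highest in Cxcl5 (5.62), Gclm (10.49), Hsp90aa1 (13.67), Isg20 (10.33), Lpin1 (9.6), Manf (11.2) and Nr4a2 (8.53) and the lowest in Fmo1 (11.45). Sham mouse 4 was the lowest in Golt1a (3.93) and the highest in Mcm4 (9.63) and Snhg12 (8.45). In SPIO mice, mouse 1 was the highest in Gpnmb (8.51) and the lowest in Nkd1 (10.33), and mouse 2 the highest in Mt1 (11.27) and Stat2 (6.5). SPIO mouse 4 was the highest in Lss (7.77) and Manf (10.38) and the lowest in Srsf3 (10.4), and SPIO mouse 5 was the highest in Alb (7.29) and the lowest in Nod1 (8.94).

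The effect at 168 h differed from that at 48 h in 14 of the named genes (limma, adjusted p from 0.0083 to 0.048). It was lower at 168 h by the log2 difference for Arntl (-1.46), Cenpe (-1.17), Sult1a1 (-1.15), Bnip3 (-0.96), Pnpla2 (-0.79), Gadd45b (-0.73), Col4a1 (-0.57), Wipi2 (-0.49) and Hopx (-0.29). It was higher at 168 h for D13Ertd608e (0.96), Klrk1 (0.76), Vat1 (0.72), Gkn3 (0.71) and Mdrl (0.7). Cenpe, Sult1a1, Pnpla2, Col4a1, Wipi2, Hopx and Klrk1 did not pass the test at 168 h itself, and the other 7 did.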

How the results depend on the processing

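The main test gave 398 genes at 168 h, 739 with an effect that differed from 48 h, 0 that differed from 96 h, 61 named genes and 28 list genes. For genes at 168 h the number was 1580 probe sets over all probe sets, 671 genes with probe sets averaged per gene, 651 with the second-brightest probe set (28 of the 265 genes with one passed again, and 82 changed sign), 57 with the 168 h arrays fitted alone, 763 with array weights and 121 with a fold minimum of 1.5. For the difference from 48 h it was 491 over all probe sets, 439 with the mean of probe sets, 160 after quantile normalising again, 176 with arrays centred on their medians, 33 with the arrays of both times fitted alone, 4218 with array weights and 280 with the fold minimum. Fitted alone, 22 named genes and 5 list genes passed, and with one array left out the numbers ran from 100 to 665 genes, from 75 (without SPIO mouse 5 of 168 h) to 1889 (without sham mouse 4 of 48 h) for the difference from 48 h, from 0 to 1 for that from 96 h, from 29 to 73 named genes and from 8 to 56 list genes. The methods' test, an analysis of variance followed by Tukey's test, called 408 genes with the former unadjusted and 377 after its Benjamini-Hochberg adjustment. In the other alternatives run the numbers stayed within 1.5 times those of the main test, and no gene of the 398 changed sign under another normalisation, filter or fit. With the mean of probe sets 10 genes did. The replicate block gave 400 genes, 380 of them among the 398. Same-numbered mice deviated together with correlations of -0.51, -0.43, 0.31, 0.39 and 0.1, and 1 of 5 SPIO mice correlated best with its own number, so the numbers are taken as names only. Of the 61 named genes that passed, 25 did so with any array left out. In the alternative fits scored for single genes, 15 passed in every fit that held them. D13Ertd608e, among these 15, was held by 19 fits, against 20 for Sp4, since the filter at a log2 value of 6 dropped it. The methods' test, the fold minimum and the test over all probe sets did not enter this count. The second-brightest probe set did not pass in any of the 13 of these 15 with several probe sets. The cause of these shifts was not tested.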
